A study of Mus musculus with 2 samples.

Results

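The genes described here are 41 mouse genes of germ cell specification, meiosis and the piRNA pathway. They were chosen by name, through the Ensembl identifiers of their symbols in the GENCODE M21 annotation, and all 41 were found among the 43629 genes listed in the count data. RNA was measured in 2 Dicer_KO libraries of mouse embryonic stem cells (mESCs), of which replicate 1 was taken at passage 7 and replicate 2 at passage 4. The cells derive from the E14TG2a line of strain 129/Ola, which the study routinely grew in serum with LIF, and carry CRISPR/Cas9 deletions in Dicer1, the gene of the RNase III enzyme that makes microRNAs. Mutant clones with different deletions were made in the study after sorting single cells, and the labels give each library the genotype Dicer knockout without naming the deletion. The line, the passage and the library therefore cannot be told apart. No WT library was analysed here, and no value below measures an effect of the loss of Dicer. The depth was 41710122 counts in replicate 1 and 41566184 in replicate 2, so that 3 counts, the limit that a count of 0 allows, correspond to 0.0719 and 0.0722 CPM (counts per M counts on genes). Dicer1 itself had 1343 and 1510 counts, or 32.2 and 36.3 CPM. These counts are summed over the whole gene, of which the deletions remove a part. The paper reported that Dicer mRNA was lost in both mutants and that immunoblots showed no DICER protein. Of 12 markers of embryonic stem cells, 12 had at least 1 CPM in both libraries, and their mean levels ran from 28.1 CPM for Lin28a to 3416 CPM for Dppa5a. Pou5f1 (OCT4), a core pluripotency factor, had 39069 and 43025 counts.

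Germ cells silence transposons with PIWI proteins, which carry small RNAs called piRNAs that are made without Dicer, and they reduce their chromosome number in meiosis, where homologous chromosomes are cut, paired along the synaptonemal complex and held by cohesins of their own. In mESCs and in somatic cells, many of these genes are kept down by DNA methylation of CpG-rich promoters and by a Polycomb complex whose MGA and MAX subunits bind an E-box and whose E2F6 subunit binds an E2F motif. Cultured mESCs nevertheless transcribe a number of them.

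Promoter sequences were given in RefSeq (GRCm38.p6) for 35 of the 41 genes. Those of Dppa3, Dnd1, Piwil2, Spo11, Tdrd6 and Tex15 were not used here. The 6 genes below hold an E-box (CACGTG) together with an E2F motif (TCCCGC, on either strand) within 250 bases before and 50 bases after the start of transcription, and have a mean of at least 10 CPM. They are shown because both motifs and a clear transcript level occur together in them. The first 280 bases of each window are printed 5′ to 3′ on the strand of the gene, up to 30 bases after the start, and capitals mark the motifs.
Ddx4 (chr13:112652281-112652560, minus strand): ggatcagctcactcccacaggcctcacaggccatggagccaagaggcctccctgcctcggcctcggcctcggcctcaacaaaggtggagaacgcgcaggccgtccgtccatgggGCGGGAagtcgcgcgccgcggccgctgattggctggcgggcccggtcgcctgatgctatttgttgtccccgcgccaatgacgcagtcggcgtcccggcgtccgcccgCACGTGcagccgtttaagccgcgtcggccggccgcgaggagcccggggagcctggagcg
Hormad1 (chr3:95559427-95559706, plus strand): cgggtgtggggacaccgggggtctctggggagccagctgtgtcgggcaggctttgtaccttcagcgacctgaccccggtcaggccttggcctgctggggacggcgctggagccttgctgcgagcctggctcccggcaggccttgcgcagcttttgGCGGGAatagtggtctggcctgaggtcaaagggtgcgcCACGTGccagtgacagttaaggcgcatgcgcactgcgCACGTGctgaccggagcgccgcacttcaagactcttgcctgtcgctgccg
Mael (chr1:166238715-166238994, minus strand): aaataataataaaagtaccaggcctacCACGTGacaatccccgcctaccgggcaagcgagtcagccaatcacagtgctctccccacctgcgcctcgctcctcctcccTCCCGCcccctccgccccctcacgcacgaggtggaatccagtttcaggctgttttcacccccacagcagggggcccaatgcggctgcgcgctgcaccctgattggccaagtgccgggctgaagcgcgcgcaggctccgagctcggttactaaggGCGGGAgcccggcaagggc
Stag3 (chr5:138280259-138280538, plus strand): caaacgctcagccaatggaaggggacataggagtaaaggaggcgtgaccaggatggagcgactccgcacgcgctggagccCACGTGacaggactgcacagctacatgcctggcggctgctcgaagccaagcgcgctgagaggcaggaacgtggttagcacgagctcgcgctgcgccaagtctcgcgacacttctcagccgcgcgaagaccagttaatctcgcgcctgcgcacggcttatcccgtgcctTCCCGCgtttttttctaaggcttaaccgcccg
Sycp3 (chr10:88459337-88459616, plus strand): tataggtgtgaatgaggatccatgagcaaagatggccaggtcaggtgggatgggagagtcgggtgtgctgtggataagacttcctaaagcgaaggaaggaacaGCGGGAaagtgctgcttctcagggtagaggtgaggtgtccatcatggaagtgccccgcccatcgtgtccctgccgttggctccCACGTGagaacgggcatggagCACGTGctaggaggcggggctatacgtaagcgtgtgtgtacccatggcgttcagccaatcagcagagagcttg
Zp3 (chr5:135979855-135980134, plus strand): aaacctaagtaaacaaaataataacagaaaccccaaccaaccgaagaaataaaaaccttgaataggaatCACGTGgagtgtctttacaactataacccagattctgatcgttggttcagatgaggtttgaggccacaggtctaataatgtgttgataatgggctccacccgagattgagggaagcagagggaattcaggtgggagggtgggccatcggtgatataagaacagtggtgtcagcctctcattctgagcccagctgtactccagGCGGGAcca

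The RefSeq promoter window of Stra8, the gene with the largest difference between the libraries among the 41 by fold among genes with enough counts, is also shown. Neither motif occurs in it, as in 16 of the 35 genes with a promoter sequence. This window begins at 34920698, inside the M21 gene, which starts at 34920163. The bases before that M21 start were not searched.
Stra8 (chr6:34920698-34920977, plus strand): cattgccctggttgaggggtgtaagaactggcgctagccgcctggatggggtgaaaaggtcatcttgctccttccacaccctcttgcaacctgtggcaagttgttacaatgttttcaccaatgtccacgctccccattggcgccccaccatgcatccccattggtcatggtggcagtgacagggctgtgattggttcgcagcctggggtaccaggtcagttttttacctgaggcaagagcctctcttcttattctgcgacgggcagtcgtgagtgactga

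An E-box was present in 14 of the 35 promoters (40.0%), against 8.91% of the 17491 protein-coding genes with a promoter sequence. An E2F motif was also present in 14 of 35 (40.0%), against 28.4%, and both motifs in 9 of 35 (25.7%), against 3.10%. CpG-rich promoters hold such motifs more often. Among the 21 promoters whose CpG ratio (observed over expected CpG) was at least 0.6, 11 held an E-box (52.4%) and 12 an E2F motif (57.1%), against 12.9% and 46.5% of the 8895 protein-coding genes with such a promoter. The median CpG ratio was 0.686 for the 35 genes and 0.609 for protein-coding genes. The printed promoters ranged from 7 CpG in Zp3 to 38 in Ddx4 over the whole window, with 10 in Stra8. The E-box of Ddx4 began at position -29 from the RefSeq start, those of Hormad1 at -57 and -20, and those of Sycp3 at -64 and -43. In Mael, Stag3 and Zp3 the E-box lay farther away, at -223, -170 and -181. In the M21 annotation, Ddx4 (minus strand, from 112652475) and Stag3 (plus strand, from 138280240) begin upstream of these RefSeq starts. Their E-boxes thus lie inside the annotated genes. The bases checked after the RefSeq start of Ddx4 were not found in its M21 transcripts. The motifs are matches of letters and were not tested for binding.

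**Figure D1:**
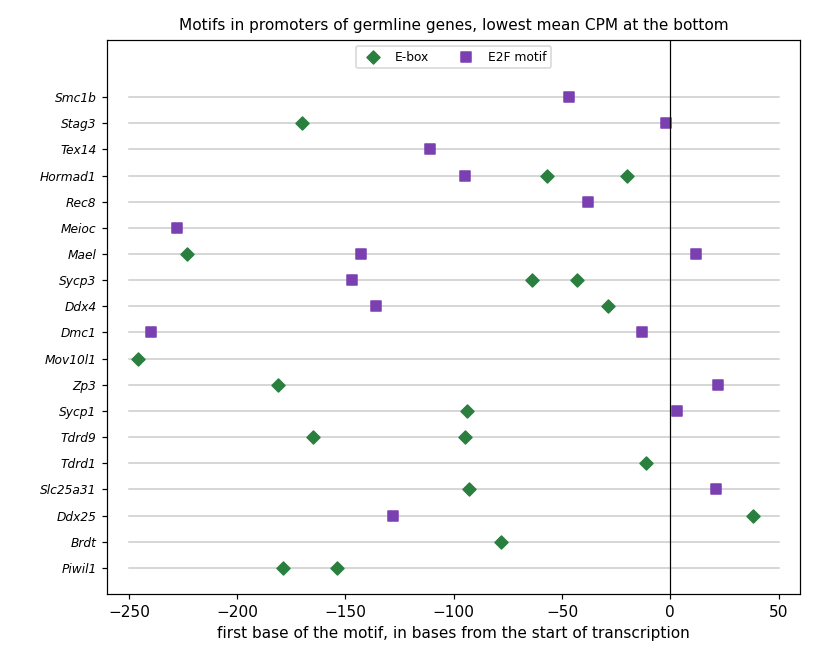
Positions of the E-box (green diamonds) and the E2F motif (purple squares) in the 19 germline gene promoters that hold at least 1 of them, 1 line per gene. The x axis gives the distance in bases from the RefSeq start of transcription, and genes are ordered by mean CPM. For genes with several promoters the first window that holds a motif is drawn. Genes at the top, such as Smc1b, Stag3 and Tex14, had the highest levels of the 19.

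The RNA of 29 of the 41 genes (70.7%) was at or above 1 CPM in both libraries, the level taken here as expressed. The same held for 57.3% of protein-coding genes and for 31.7% of all listed genes. In another 4 genes (Nanos3, Tdrkh, Tex101 and Nobox) replicate 1 reached 1 CPM and replicate 2 did not, and 7 genes were lower but above 3 counts in at least 1 library. Spo11 alone had at most 3 counts in each library, a level at which 25.0% of protein-coding genes lay. The median level was 6.81 CPM, and 18 genes had a mean above 10 CPM. Per kilobase of exon, Stra8, Hormad1, Sohlh2, Smc1b and Sycp3 had the highest mean levels. The places of Stra8 and Hormad1 each rest on 1 library, since Stra8 had 45.8 RPKM in replicate 1 and 2.51 in replicate 2, and Hormad1 had 9.47 and 29.7. By the mean, 14 of the 41 genes lay above 7.16 RPKM, the median of protein-coding genes that reached 1 CPM in both libraries. RPKM here is CPM per kilobase of the union of annotated exons. In RNA from whole cultures, more cells with a transcript and more RNA per cell cannot be told apart.

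Where promoter sequences were given, 17 of 25 expressed genes held an E-box or an E2F motif, and so did 2 of 10 genes that were not expressed by this rule (Brdt and Piwil1). The shares were 68.0% and 20.0%, the latter resting on 2 of 10 genes. Among protein-coding genes with a promoter sequence, they were 47.4% of the expressed and 16.1% of the others. A gap in the same direction was thus found across protein-coding genes, and the difference in its size was not tested. The 8 expressed genes with neither motif in the window were Stra8, Dazl, Sohlh2, Prdm1, Syce1, Sycp2, Hormad2 and Gtsf1.

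**Figure D2:**
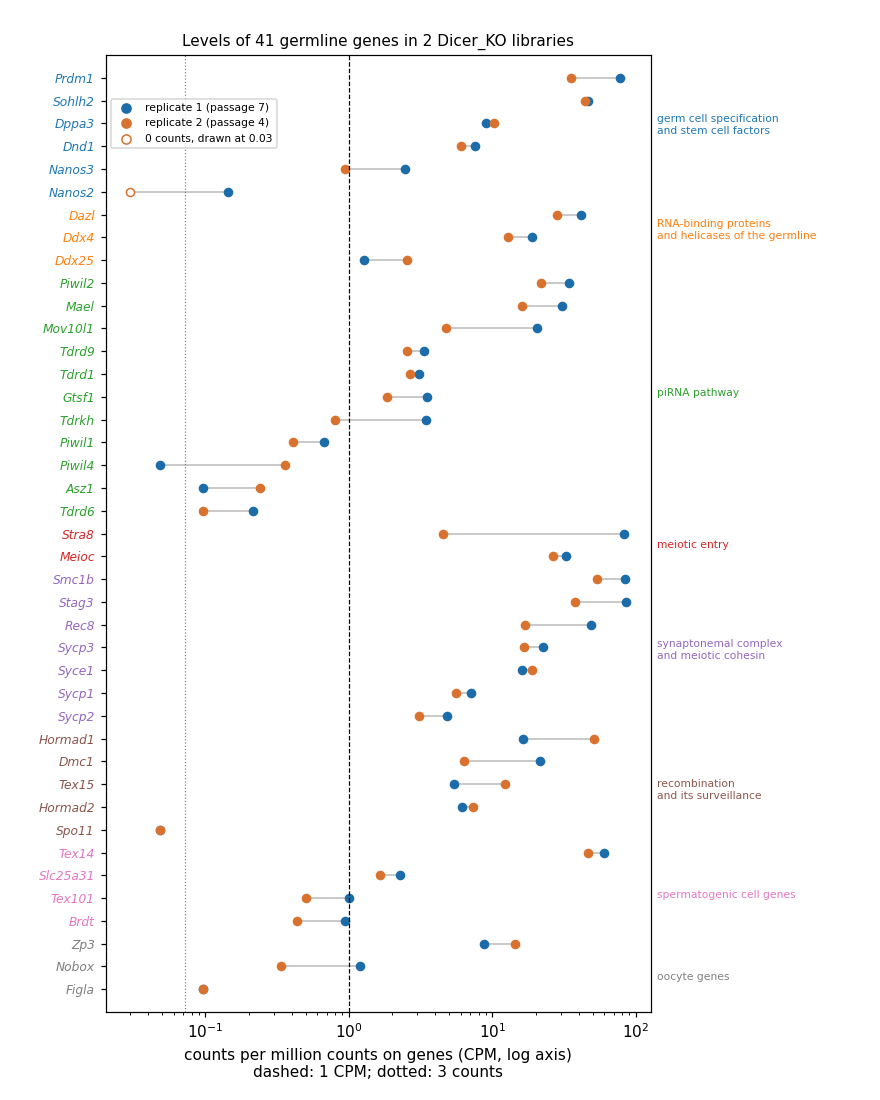
Level of each of the 41 germline genes in replicate 1 (blue) and replicate 2 (orange) in CPM on a log axis, grouped by role and ordered by mean within each role, with a grey line joining the libraries. The dashed line marks 1 CPM and the dotted line 3 counts. The synaptonemal complex and cohesin genes lie to the right of 1 CPM in both libraries, while Spo11 lies left of the dotted line.

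The genes of germ cell specification were divided. Prdm1 (BLIMP1), the transcription factor that sets up the germ cell fate in the embryo, had 3216 counts in replicate 1 and 1458 in replicate 2, or 77.1 and 35.1 CPM (56.1 ± 29.7, SD, n = 2). Sohlh2, a helix-loop-helix factor of spermatogonia and oocytes, had 1924 and 1830 counts, or 46.1 and 44.0 CPM, and was thus at nearly the same level in both. Its log2 ratio of replicate 1 over replicate 2 was -0.05 after scaling by TMM and 0.07 after scaling by total counts, with an interval of -0.14 to 0.04 for the former. Dppa3 (STELLA), a maternal factor that protects DNA methylation in the zygote and marks primordial germ cells, had 375 and 428 counts (8.99 and 10.3 CPM). Of the 50-base words of its transcripts, 16.5% also occur in transcripts of other genes, most often the processed copy Dppa3-ps, so the counts of Dppa3 are uncertain. Dnd1, an RNA-binding protein needed for the survival of primordial germ cells, had 314 and 253 counts (7.53 and 6.09 CPM). The NANOS RNA-binding proteins were lower. Nanos3 had 103 and 39 counts (2.47 and 0.938 CPM), and Nanos2, which acts in male germ cells, had 6 and 0 counts, at or near the limit of detection. Nanos2 also shares 47.4% of its 50-base words with transcripts of other genes, most often Gm45058.

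Of the germline RNA-binding proteins and helicases, Dazl and Ddx4 are the classical markers of germ cells after they reach the gonad. Dazl (ENSMUSG00000010592, chromosome 17) had 1720 and 1173 counts, or 41.2 and 28.2 CPM (34.7 ± 9.20, SD, n = 2). Ddx4, the VASA helicase (ENSMUSG00000021758, chromosome 13), had 791 and 536 counts, or 19.0 and 12.9 CPM. Both were well above the detection limit in each library, and replicate 1 was the higher one. Ddx25, a helicase of spermatids, had 53 and 106 counts (1.27 and 2.55 CPM) and was higher in replicate 2. Over its annotated exons this amounted to 0.276 RPKM, the lowest level per length of the 29 expressed genes.

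The transcripts of the piRNA pathway ranged from well above 1 CPM to a few counts. Of the PIWI proteins, which bind the piRNAs, Piwil2 (MILI) had 1420 and 905 counts, or 34.0 and 21.8 CPM (27.9 ± 8.68, SD, n = 2). Piwil1 (MIWI), the PIWI protein of later spermatogenesis, had 28 and 17 counts (0.671 and 0.409 CPM), and Piwil4 (MIWI2), that of fetal male germ cells, had 2 and 15 counts. Piwil2 was therefore the one PIWI gene of the 3 at or above 1 CPM. Mael, a piRNA factor that occurs in nuage, the germ granules around the nucleus, had 1275 and 663 counts, or 30.6 and 16.0 CPM. Mov10l1, the helicase that binds piRNA precursors, had 847 and 197 counts (20.3 and 4.74 CPM). The cofactor Gtsf1 had 146 and 76 counts (3.50 and 1.83 CPM). Each of these was higher in replicate 1. Among the Tudor-domain genes, whose products bind PIWI proteins, Tdrd1 had 128 and 111 counts and Tdrd9 had 140 and 105, while Tdrkh had 143 and 33. Tdrd6 had 9 and 4 counts, and Asz1, a mitochondrial piRNA factor, had 4 and 10. Exons of Oaz3 on the other strand cover 36.7% of the exon bases of Tdrkh, and Oaz3 had 0 counts in both libraries. Of the 11 piRNA genes, 6 (54.5%) were at or above 1 CPM in both libraries, a share near the 57.3% of protein-coding genes.

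Stra8 stood apart. It encodes a factor that retinoic acid induces and that starts meiosis, and it lies on chromosome 6 from 34920163 to 34939344 (GRCm38, plus strand). Replicate 1 had 3442 counts and replicate 2 had 188, or 82.5 CPM (95% Wilson interval 79.8 to 85.3) and 4.52 CPM (3.92 to 5.22). The difference was 16.7-fold, with a log2 ratio of 4.07 (3.86 to 4.29, an exact interval for counting error). Of the 17788 genes with enough counts for a ratio, 47 had one at least as high, Stra8 included, and 3 of the 47 were among the 7401 genes whose mean reached 1000 counts. Meioc, which sustains meiotic prophase, did not share this difference. Its counts were 1360 and 1100, or 32.6 and 26.5 CPM, with a log2 ratio of 0.18 (0.07 to 0.30).

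All 7 genes of the synaptonemal complex and of meiotic cohesin were at or above 1 CPM in both libraries, against 57.3% of protein-coding genes. By the mean of the libraries, the cohesin subunits had the highest CPM, which is not corrected for length. Per kilobase, the means of Sycp3 and Syce1 lay above those of Rec8 and Stag3. In replicate 2, Syce1 was above Rec8 in CPM (18.9 and 16.8), and in replicate 1 it was below Rec8 and Stag3 per kilobase. Smc1b had 3493 and 2236 counts, or 83.7 and 53.8 CPM (68.8 ± 21.2, SD, n = 2). Stag3 had 3581 and 1555 counts, or 85.9 and 37.4 CPM. Rec8, the meiotic kleisin, had 2038 and 699 counts, or 48.9 and 16.8 CPM. All 3 were higher in replicate 1. Of the structural proteins of the complex, Sycp3, a component of its lateral elements, had 932 and 691 counts (22.3 and 16.6 CPM), and Syce1, a central element protein, had 667 and 784 (16.0 and 18.9 CPM). Sycp1, which forms the transverse filaments, had 298 and 231 counts (7.15 and 5.56 CPM), and Sycp2, also of the lateral elements, had 201 and 129 (4.82 and 3.10 CPM). Exons of Chpt1, which had 1047 and 701 counts, lie on the other strand over 52.2% of the exon bases of Sycp3. How the counting treated strand is not given in the sources used here, so the value of Sycp3 is uncertain.

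Among the genes of meiotic recombination, the transcript of the enzyme that makes the breaks was near the limit of detection, while those of others that act on them were not. Spo11, the enzyme of the DNA double-strand breaks, had 2 counts in each library. Dmc1, the meiotic recombinase, had 899 and 262 counts, or 21.6 and 6.30 CPM, and was higher in replicate 1. Hormad1, an axis protein that monitors unpaired chromosomes, had 683 and 2138 counts, or 16.4 and 51.4 CPM (33.9 ± 24.8, SD, n = 2), and was higher in replicate 2. Its transcripts share 22.9% of their 50-base words with transcripts of other genes, most often Gm15529, so reads may be split between them. Its relative Hormad2 had 256 and 302 counts (6.14 and 7.27 CPM). Tex15, needed for meiotic repair and for silencing of transposons, had 227 and 509 counts (5.44 and 12.3 CPM), again higher in replicate 2.

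Of the spermatogenic genes, Tex14, which keeps the bridges between germ cells, had 2481 and 1933 counts, or 59.5 and 46.5 CPM. Slc25a31, a mitochondrial ADP/ATP carrier of germ cells, had 94 and 68 counts (2.25 and 1.64 CPM). Both were expressed by the 1 CPM rule. Tex101, a surface protein, had 42 and 21 counts, and Brdt, a bromodomain protein of the testis, had 39 and 18. In the oocyte group, Zp3, a glycoprotein of the egg coat, had 366 and 596 counts (8.78 and 14.3 CPM). The oocyte transcription factors were lower, with 50 and 14 counts for Nobox and 4 and 4 for Figla.

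Between the libraries, the question was whether the 41 genes differ together or gene by gene. Log2 ratios (replicate 1 over replicate 2) were computed after TMM scaling, a scaling for library composition, with a pseudocount of 1, and genes whose mean was below 10 counts were left out. This kept 35 of the 41 genes and left out Nanos2, Piwil4, Asz1, Tdrd6, Spo11 and Figla. Replicate 1 was the higher library for 27 of the 35 (77.1%) and replicate 2 for 8, where 51.3% of the 17788 genes kept were higher in replicate 1. The median log2 ratio was 0.44 (quartiles 0.13 and 0.99), against 0.02 for all genes kept (quartiles -0.38 and 0.54). More than 2-fold higher in replicate 1 were 9 genes (25.7%), against 14.2% of all genes kept, and more than 2-fold higher in replicate 2 were 3 genes (8.57%), against 7.14%. For replicate 2 the germline share was thus near that of all genes. The summed level of the 41 genes was 810 CPM in replicate 1 and 516 CPM in replicate 2, and 728 and 511 CPM without Stra8. The libraries form 1 group and may be of different deletion lines, so a difference between them has no replicate check and no p-value was computed. The 12 stem cell markers differed gene by gene, with 8 higher in replicate 1 and a median log2 ratio of 0.12. Single ratios were 1.11 for Dppa5a, 0.74 for Nanog and -1.64 for Lin28a. The summed level of the 12 markers was 10302 and 6707 CPM, of which Dppa5a alone had 4792 and 2041 CPM. The part of the stem cell markers in the germline values was not tested. The intervals cover counting error only.

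The 9 genes higher in replicate 1 were, after Stra8, Mov10l1 (log2 ratio 1.98, 3.94-fold), Tdrkh (1.96), Nobox (1.65), Dmc1 (1.65), Rec8 (1.42), Nanos3 (1.26), Stag3 (1.08) and Prdm1 (1.02). They came from most of the roles and included the cohesin subunits Rec8 and Stag3. The counting intervals of Nobox (0.84 to 2.68), Nanos3 (0.73 to 1.85), Stag3 (0.99 to 1.17) and Prdm1 (0.93 to 1.11) reached below 2-fold. Those of the others among the 9 did not. The 3 genes higher in replicate 2 were Hormad1 (-1.77, interval -1.89 to -1.64), Tex15 (-1.28, -1.52 to -1.06) and Ddx25 (-1.11, -1.63 to -0.63). Of the 4 recombination genes with enough counts, 2 were thus more than 2-fold higher in replicate 2 and 1 in replicate 1. All 8 piRNA genes kept were higher in replicate 1, from 0.08 for Tdrd1 to 1.98 for Mov10l1, where 51.3% of all genes kept were. Of the 8, 2 passed 2-fold, against 14.2% of all genes kept. Mov10l1 and Gtsf1 lie on chromosome 15, described below. The intervals of Tdrd1, Tdrd9 and Piwil1 included 0, and of the piRNA genes left out for low counts, Piwil4 and Asz1 had more counts in replicate 2. The genes nearest the 2-fold threshold were Prdm1 (1.02) on the inside and Brdt (0.96) on the outside. The counting interval lay above a ratio of 1 for 21 of the 35 genes and below it for 7, against 37.8% and 35.4% of all genes kept, and it included a ratio of 1 for 7.

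Chromosome 15 was higher as a whole in replicate 1. Its 683 genes had a median log2 ratio of 0.59, whereas those of the other 18 autosomes lay between -0.08 and 0.08. Of the 41 genes, 4 lie there: Mov10l1 at 1.98, Dmc1 at 1.65, Gtsf1 at 0.81 and Smc1b at 0.52. Without them, 23 of 31 genes were higher in replicate 1, the median was 0.34, and 7 were more than 2-fold higher. The part of the chromosome in the values of these 4 genes was not tested.

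**Figure D3:**
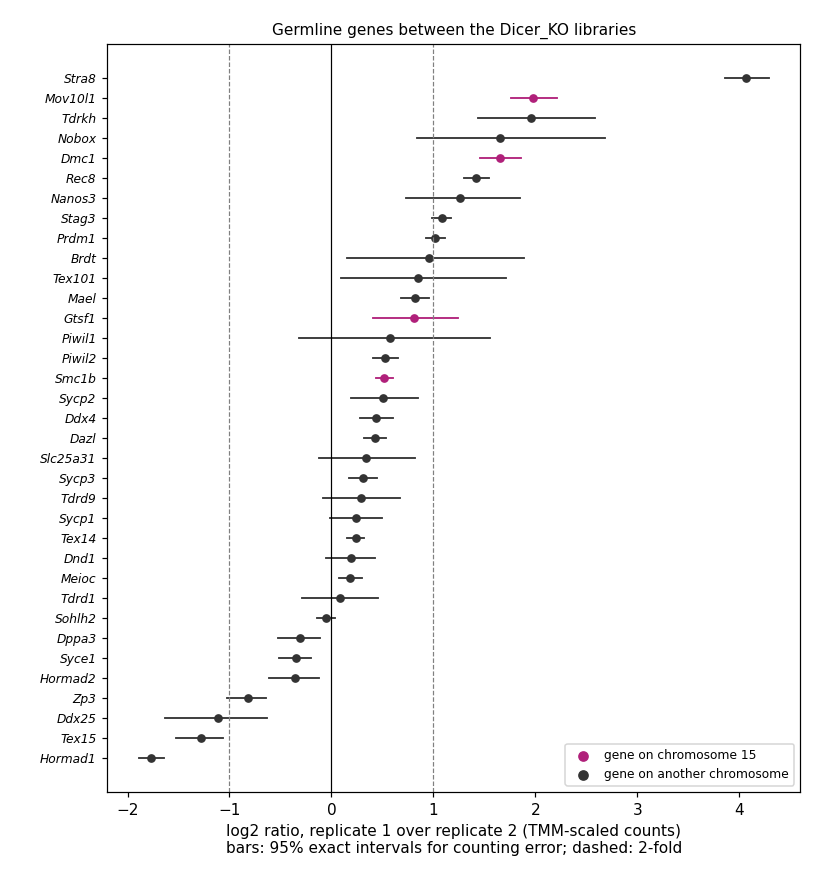
Log2 ratio of replicate 1 over replicate 2 after TMM scaling for the 35 germline genes kept, with 95% exact intervals for counting error and dashed lines at 2-fold. Genes on chromosome 15 are in magenta. Stra8 lies at 4.07, apart from the next gene at 1.98, and Hormad1 lies lowest at -1.77.

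Other genes of the same pathways, from lists of known members, were also transcribed. Of 18 further piRNA pathway genes found in the data, 15 were at or above 1 CPM in both libraries, against 57.3% of protein-coding genes. They were led in mean CPM by Morc1, a repressor of transposons in male germ cells, at 225 and 314 CPM, and by D1Pas1, a germ cell helicase, at 88.4 and 114 CPM. Between the libraries, 4 of the 16 with enough counts were more than 2-fold higher in replicate 1 and 2 in replicate 2, against 14.2% and 7.14% of all genes kept. Tdrd7, Exd1 and Btbd18 were higher in replicate 1 by log2 ratios of 1.31, 1.02 and 1.05, and Stk31 and Fkbp6 were higher in replicate 2 (-1.45 and -1.48). The median of the 16 genes was 0.05, and that of the 8 piRNA genes above was 0.69. Of those 8, Mov10l1 and Gtsf1 lie on chromosome 15, which was higher as a whole in replicate 1. The difference of these medians was not tested.

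Of 25 further meiosis genes, 19 were at or above 1 CPM in both libraries, against 57.3% of protein-coding genes. The highest in CPM, uncorrected for length, were Sgo2a, the shugoshin that protects cohesin, at 219.6 and 195 CPM, and Trip13, the ATPase that removes HORMA-domain proteins from chromosome axes, at 52.7 and 94.6 CPM. Neither is restricted to meiosis. More than 2-fold higher in replicate 1 were 7 of the 23 with enough counts, against the same 14.2%. Rec114, a partner of the break machinery, had 13.3 and 4.07 CPM (log2 ratio 1.59), Tex11 had 26.8 and 11.1 CPM (1.15), and Cntd1, Meiob and Msh5 had ratios of 1.49, 1.17 and 1.15. Msh4, which works as a pair with Msh5, went the other way, with 51 and 170 counts (-1.84). It was the 1 gene of this list more than 2-fold higher in replicate 2.

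Markers of later germ cells and of other cells were set beside these genes. Of 10 markers of haploid sperm, 8 had at most 3 counts in each library and 5 had 0 in both, among them the protamine genes Prm1 and Prm2. Crem, a transcription factor gene that is also active outside the testis, was at 6.16 and 6.18 CPM, Acr had 4 and 0 counts, and Spaca1 had 2 in each library. None of the 10 oocyte markers reached 1 CPM in both libraries, the highest being Gdf9 with 15 and 20 counts and Bmp15 with 7 and 25. The summed level of the sperm markers was 6.33 and 6.26 CPM, and that of the oocyte markers 1.10 and 1.49 CPM. Of 10 fibroblast markers, 2 were at or above 1 CPM in both libraries, Thy1 at 19.7 and 14.9 CPM and Pdgfrb at 6.83 and 2.19 CPM. Col1a1 and Col1a2 had 20 and 6 counts in replicate 1 and 18 and 1 in replicate 2. Dcn had 0 counts in replicate 1 and 19 in replicate 2, while Postn had 0 in both. Of 8 primitive endoderm markers, 3 were at or above 1 CPM in both libraries, with Lama1 at 28.7 and 40.2 CPM and Gata4 at 14.0 and 7.65 CPM the highest. The summed fibroblast level was 27.7 and 18.3 CPM, the summed endoderm level 47.0 and 50.9 CPM, and their part in the germline values was not tested.

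**Figure D4:**
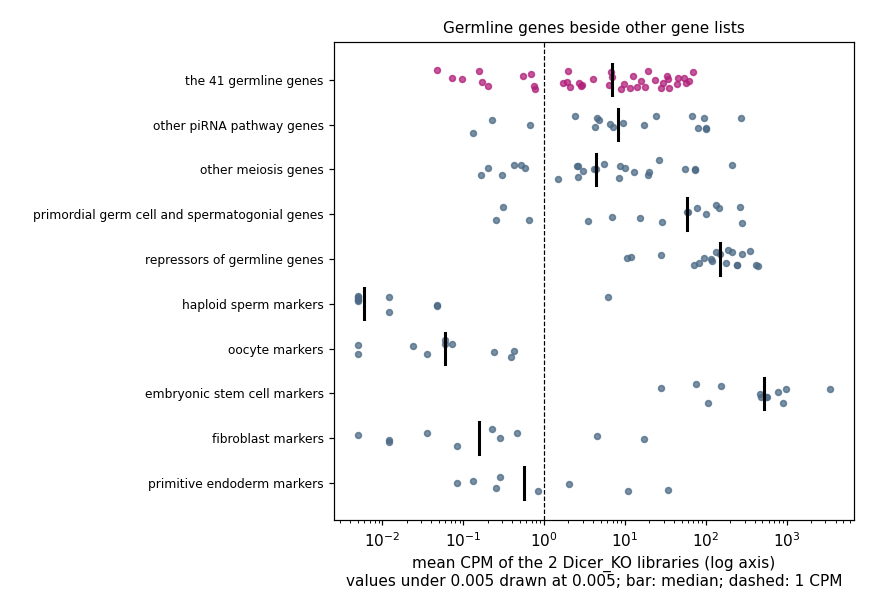
Mean CPM of the 2 Dicer_KO libraries on a log axis for the 41 germline genes (magenta) and 9 other gene lists (blue), 1 point per gene, with a black bar at the median and a dashed line at 1 CPM. The germline genes have a median of 6.81 CPM, while the haploid sperm and oocyte markers lie almost wholly below 1 CPM.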

How the data were processed

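PolyA-selected RNA of 2 Dicer_KO mESC libraries was analysed. Reads were trimmed (Trimmomatic) and mapped by the authors to mm10 with STAR (2.4.2a), which kept multiple hits, and featureCounts (1.4.5-p1) counted them per Ensembl gene without those on overlapping regions. The authors deposited raw counts. The settings for strand and for multiple hits in the counting are not given in the sources used here.

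Counts were divided by the total to give CPM, with Wilson intervals, and between libraries scaled by TMM (edgeR 4.0.16, R 4.3.3), with DESeq2 (1.42.0) size factors, total and raw counts as alternatives. Log2 ratios used a pseudocount of 1 and a mean of at least 10 counts, with exact (Clopper-Pearson) intervals from scipy 1.17.1. These cover counting error only. A gene beyond 2-fold was called. No p-value was computed. Identifiers were matched to GENCODE M21, which lacked 1167 of 43629, and 127 of the 131 symbols of the other lists were found. Exon lengths are those of M21 and can include exons of rare isoforms. Promoters came from RefSeq (GRCm38.p6), and 50-base words from the M21 transcripts. The steps were tested on simulated data. The genes and lists were chosen with earlier results of these data known. All 41 genes are named, and of each other list the 2 with the highest CPM and those beyond 2-fold with a mean of at least 100 counts. Acr, Col1a1, Col1a2, Dcn, Postn, Prm1, Prm2, Sohlh1, Nanog, L3mbtl2 and Yaf2 were named after their values were seen.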

Additional observations from a re-analysis of the deposited data

How the results depend on the processing

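No paired analysis was possible because the 2 libraries form a single group. The number of the 41 genes at or above 1 CPM was 29, and between 24 and 32 with a minimum of 0.5 or 2 CPM, 1 RPKM or TMM library sizes. It lay between 29 and 33 with a replicate left out. Without the genes that share sequence with others, a setting chosen after seeing the data, it was 24. That setting also takes those genes out of the total, so its 24 is not out of 41. The number with at most 3 counts was 1, but 0 if 0 counts were required, 4 with fewer than 10 counts, and 2 with either replicate left out (Spo11 and Piwil4 without replicate 2, Spo11 and Nanos2 without replicate 1). Genes beyond 2-fold between the libraries numbered 12 of 35, and from 10 to 15 under other scalings, filters, a pseudocount of 0.1 or without chromosome 15. The 10 were out of 31 genes without chromosome 15, and the 15 out of 41 without a filter on low counts. At 4-fold the number was 1, which was Stra8. Total or raw counts moved the median of all genes from 0.02 to 0.14 and turned the sign of Sohlh2, took Ddx25 below 2-fold and Brdt above it. The ratios of Spo11 (-0.08) and Figla (-0.10), each with equal counts in both libraries, went to 0.00 with raw counts. None of the other genes among the 41 changed sign under the scalings or the pseudocount. A ratio between the 2 libraries cannot be recomputed with a replicate left out.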

Other observations

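The genes that hold germline genes down were transcribed throughout. Of 19 repressors of germline genes, 19 were at or above 1 CPM in both libraries, against 57.3% of protein-coding genes. The median of the 19 was 149 CPM. Mga, whose protein binds the E-box within the Polycomb complex, had 370 and 501 CPM, and Dnmt1, the maintenance DNA methyltransferase, had 408 and 428 CPM. Most were lower in replicate 1, with 3 of the 19 higher there, where 51.3% of all genes kept were, and with a median log2 ratio of -0.36, against 0.02. The difference from the germline genes was not tested. Dnmt3b, a de novo DNA methyltransferase, had 5495 and 17958 counts (log2 ratio -1.83), and its cofactor Dnmt3l had 2142 and 5787 (-1.56). They were the 2 genes of the 19 beyond 2-fold. Both were higher in replicate 2, against 7.14% of all genes kept. None was more than 2-fold higher in replicate 1, against 14.2%. Of these repressors, L3mbtl2 and Yaf2 lie on chromosome 15. DNA methylation was not measured, and a relation between these levels and the germline genes was not tested.

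Among 15 genes of primordial germ cells and spermatogonia, 12 were at or above 1 CPM in both libraries, against 57.3% of protein-coding genes. Ifitm3 and Sall4, which mESCs share with primordial germ cells, had the highest CPM, uncorrected for length, at 304 and 254 CPM and at 216 and 316 CPM. Kit, the receptor of stem cell factor, had 5359 and 1038 counts, a log2 ratio of 2.24, and Tfap2c, a specification factor that acts with Prdm1, had 3742 and 1311 counts (1.39). Sohlh1 also passed 2-fold, on 15 and 6 counts (1.09, interval -0.25 to 2.85). In all, 3 of the 15 were more than 2-fold higher in replicate 1, against 14.2% of all genes kept, and none in replicate 2.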
